A study of Mus musculus with 6 samples.

Results

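Of the 690 mouse miRNA names on the arrays, 10 belong to a group of related seeds around miR-15 and miR-16. They were chosen by name: both arms of miR-15a, miR-15b, miR-16, miR-195a, miR-497, miR-103 and miR-107, as far as the arrays carry them, whatever their signal. The 7 names that are main arms, miR-15a-5p, miR-15b-5p, miR-16-5p, miR-195a-5p, miR-497-5p, miR-103-3p (mmu-miR-103-3p in full) and miR-107-3p, had signals well above background on each of the 6 arrays and were tested. The 3 opposite arms, miR-15a-3p, miR-15b-3p and miR-16-1-3p, were well above background on 0 arrays and were not tested.

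The RNA came from mouse cells sorted as negative for CD45, a surface marker of white blood cells, and for CD31, a surface marker of endothelium. All mice carried the transgene SMA-GFP, in which the regulatory region of smooth muscle actin drives green fluorescent protein; that gene is active in myofibroblasts and also in vascular smooth muscle and pericytes. The skin group holds cells with weak GFP from dermis, labelled fibroblast-like, on 3 arrays (preparations 1, 2 and 5). The wound group holds cells with strong GFP from wounds 7 days after injury, labelled myofibroblast, on 3 arrays (preparations 3, 4 and 6). No label gives strain, age or how many animals a preparation pooled, so p-values measure the spread between preparations, which may be partly technical. Tissue, injury and GFP level changed together and cannot be told apart.

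A miRNA guides the Argonaute complex to messenger RNAs through its seed, the bases from the second to the eighth, and lowers their stability and translation. miRNAs of the miR-15/16 family are known to slow the cell cycle by repressing cyclins D and E and the checkpoint kinases Chek1 and Wee1, and to favour cell death through Bcl2. miR-103 and miR-107 lie in introns of pantothenate kinase genes and are known for roles in lipid and insulin metabolism and for repressing Dicer, the enzyme that cuts miRNA precursors.

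The mature sequences, taken from RefSeq (build GRCm38.p6) and written from 5′ to 3′ with the seed in capitals, are shown because seed sharing defines the group while the remaining bases tell its members apart. All 7 tested members had an entry; miR-497-5p was matched through its gene Mir497 and is called miR-497a-5p there.
miR-15a-5p: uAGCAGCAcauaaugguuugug
miR-15b-5p: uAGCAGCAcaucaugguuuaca
miR-16-5p: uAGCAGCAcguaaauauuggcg
miR-195a-5p: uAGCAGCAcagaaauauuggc
miR-497-5p: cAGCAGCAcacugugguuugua
miR-103-3p: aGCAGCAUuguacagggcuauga
miR-107-3p: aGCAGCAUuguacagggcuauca
Relatives outside the group, encoded in an X-linked cluster, are shown for their seeds.
miR-322-5p: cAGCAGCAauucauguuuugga
miR-503-5p: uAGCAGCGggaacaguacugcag

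Five-prime arms of miR-15a, miR-15b, miR-16, miR-195a and miR-497 share the seed AGCAGCA with miR-322-5p. That seed occurs in 10 of the 1679 mature mouse miRNA names of the RefSeq table (0.596%), of which 6 are on the arrays. miR-103-3p and miR-107-3p have the seed GCAGCAU, held by these 2 names alone in that table. The letters AGCAGCA also open miR-103-3p and miR-107-3p, but from the first base, so that their seed is shifted by 1 base against that of miR-16-5p. miR-503-5p differs from the common seed in its last base (AGCAGCG). Over their whole length, miR-103-3p and miR-107-3p are identical at 22 of 23 bases and differ by G22C, counted from the 5′ end with the base of miR-103-3p first. miR-16-5p and miR-195a-5p are identical at 19 of 21 compared bases (G10A and U11G), and miR-15a-5p and miR-15b-5p at 18 of 22 (A12C, G20A, U21C and G22A). Whether probes for such near-identical miRNAs also caught each other's RNA was not tested.

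The genes lie in 3 pairs and 3 single loci (RefSeq, GRCm38.p6, positions of the mature arm). miR-15a-5p (chr14:61632075-61632096, minus strand) lies 117 bases from a copy of miR-16-5p (chr14:61631936-61631957, minus strand) within the span of the noncoding gene Dleu2. miR-15b-5p (chr3:69009775-69009796, plus strand) lies 121 bases from the other copy of miR-16-5p (chr3:69009918-69009939, plus strand) within the span of Smc4, which encodes a subunit of the condensin complexes that compact chromosomes in mitosis. Because both copies give the same mature miR-16-5p, the arrays cannot divide its signal between the loci. miR-497-5p (chr11:70234730-70234751) and miR-195a-5p (chr11:70235062-70235082) lie 310 bases apart on the plus strand, outside any other annotated gene. miR-103-3p has copies within Pank3 (chr11:35782447-35782469, plus strand) and Pank2 (chr2:131288103-131288125, plus strand), and miR-107-3p lies within Pank1 (chr19:34820700-34820722, minus strand). The table of genes gave spans without exons, so exon and intron positions were not used here.

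Values below are log2 of the background-subtracted signal after each array was divided by the 75th percentile of its probes that were well above background on all arrays. A value of 0 is thus the signal of a bright probe, and -5.30 is the floor to which dimmer signals were raised. Levels of different miRNAs depend on their probes and are not compared with each other; only changes are. That percentile lay between 786 and 1772 intensity units over the arrays, against a median local background of 49.0 to 55.5. Tested members stood 6.53 to 209.5 times above the lowest signal that was well above background on the same array, and the number of arrays limits the precision. Across the 222 tested miRNAs, Pearson correlations of log2 values were 0.985 to 0.992 for arrays of a group and 0.846 to 0.883 for arrays of different groups; miRNAs are not independent replicates. The deposited table of log2 values numbers its columns differently from the array titles: its columns 1, 2 and 3 equal the scanner files of wound preparations 3, 4 and 6, and its columns 4, 5 and 6 those of skin preparations 1, 2 and 5. Groups here follow the titles of the scanner files.

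Within the group the wound cells had more miR-15b-5p (2.89-fold) and less miR-195a-5p and miR-497-5p (2.79-fold and 2.09-fold), although all of them carry the same seed. miR-107-3p and miR-103-3p were lower by 1.44-fold and 1.30-fold. miR-16-5p was 1.30-fold higher, which is the median change of all tested miRNAs, and its direction turned with the scaling. miR-15a-5p did not pass the test. In all, 6 of 7 tested members passed limma's test (p under 0.05 after Benjamini-Hochberg adjustment), 2 higher and 4 lower, where 64.9% of all 222 tested miRNAs passed. Calls in the higher direction made up 44.1% and calls in the lower direction 20.7% of the tested miRNAs. The median difference of the tested members was -0.37, against 0.38 over all tested miRNAs. The latter depends on filter and floor: it was 0.24 over the 156 miRNAs well above background on all arrays. With the floor raised 4 times it was about 0. In bulk RNA a smaller share of cells with a miRNA and less of it per cell cannot be told apart.

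**Figure D1:**
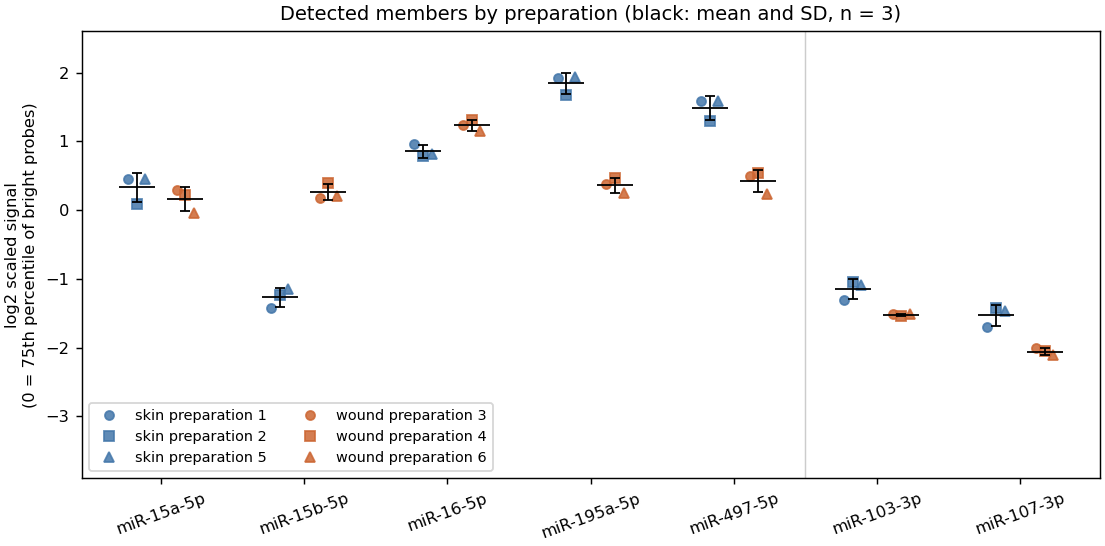
Log2 scaled signal (vertical axis) of the 7 tested members on each array, skin in blue and wound in orange, with mean and SD (n = 3) in black; the vertical line parts the AGCAGCA seed from the GCAGCAU seed. miR-15b-5p is higher and miR-195a-5p and miR-497-5p are lower on every wound array, while the values of miR-15a-5p overlap.

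miR-15b-5p was the member that rose most. Its log2 levels were -1.42, -1.24 and -1.15 on skin preparations 1, 2 and 5, and 0.18, 0.40 and 0.20 on wound preparations 3, 4 and 6. All wound arrays lay above all skin arrays by more than the spread of either group. Before scaling the signals were 555, 526 and 797 intensity units in skin and 890, 1442 and 1309 in wound. The mean went from -1.27 ± 0.14 (SD, n = 3) to 0.26 ± 0.12, a difference of 1.53 (SE 0.10, 95% interval 1.28 to 1.79, adjusted p = 0.00011 in limma). That lies 1.15 over the median change on these arrays, and it ranked 38th from the highest among the 222.

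miR-16-5p, whose copies neighbour both miR-15 genes, had log2 levels of 0.96, 0.79 and 0.82 on the skin arrays and 1.23, 1.31 and 1.15 on the wound arrays. The groups did not overlap, and the difference of 0.38 (SE 0.07, 95% interval 0.20 to 0.55) passed with an adjusted p of 0.0061 in limma. Less the median change of the tested miRNAs it was -0.0012. Less the median of miRNAs well above background on all arrays it was 0.14, and 0.38 with the floor raised 4 times. The difference turned to -0.31, -0.029 and -0.20 when arrays were scaled to the percentile of all probes, to their medians or not at all. It passed under none of these 3, and passed at 0.63 under quantile normalization. The percentile of all probes takes in many dim ones, since 275 of 1928 probes were well above background on all arrays. Under quantile normalization the median change is zero, so there miR-16-5p lay above the average miRNA. In the main scaling it lay on the median of all tested miRNAs. No direction of miR-16-5p holds apart from the choice of scaling.

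miR-15a-5p gave 0.46, 0.089 and 0.45 on the skin arrays and 0.29, 0.22 and -0.043 on the wound arrays, and the groups overlapped. Its difference was -0.18 (SE 0.15, 95% interval -0.55 to 0.20, adjusted p = 0.34 in limma), so a decrease of up to 0.55 is within the interval. It passed as lower after scaling to the percentile of all probes (-0.86) or to array medians (-0.58), and with total signals per miRNA (-0.43), where 62.2% of tested miRNAs passed. Less the median change it was -0.56 under the main scaling.

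miR-195a-5p fell most. Its log2 levels were 1.92, 1.67 and 1.94 on the skin arrays against 0.37, 0.47 and 0.24 on the wound arrays. Before scaling this was 5613, 3950 and 6802 intensity units in skin and 1019, 1512 and 1344 in wound. Every wound array lay below every skin array. The mean went from 1.84 ± 0.15 to 0.36 ± 0.11 (SD, n = 3), a difference of -1.48 (SE 0.10, 95% interval -1.74 to -1.22, adjusted p = 0.00014 in limma). It ranked 14th from the lowest of the 222, and 1.86 below their median.

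Its neighbour miR-497-5p had log2 levels of 1.58, 1.29 and 1.59 in skin and 0.49, 0.54 and 0.23 in wound, again without overlap. The difference was -1.06 (SE 0.13, 95% interval -1.39 to -0.73, adjusted p = 0.0012 in limma). Both miRNAs of the chromosome 11 pair thus fell, and miR-195a-5p changed further when probes were averaged. On the same array the log2 ratio of miR-195a-5p to miR-497-5p was 0.33, 0.38 and 0.35 in skin and -0.12, -0.078 and 0.0096 in wound. The exact permutation p of this ratio was 0.1. Its shift of -0.42 is smaller in size than the gap of 0.45 between the probes of miR-497-5p. With median spots of the brightest probe the differences were -1.40 for miR-195a-5p and -1.16 for miR-497-5p.

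miR-107-3p gave -1.70, -1.42 and -1.48 on the skin arrays and -2.01, -2.06 and -2.11 on the wound arrays. It fell by 0.53 on the log2 scale (SE 0.09, 95% interval -0.75 to -0.30, adjusted p = 0.0043 in limma). miR-103-3p gave -1.31, -1.05 and -1.09 in skin and -1.52, -1.54 and -1.51 in wound. It fell by 0.37 on the log2 scale (SE 0.08, 95% interval -0.58 to -0.17, adjusted p = 0.011 in limma). For each of the pair the wound arrays lay below all skin arrays, and in all 6 of 7 members had wound and skin values that did not overlap, in either direction, where 69.8% of all tested miRNAs did. Both were called lower under each of 5 scalings, with differences from -1.06 to -0.37 for miR-103-3p and from -1.21 to -0.53 for miR-107-3p; with normexp background correction neither passed and both turned to above 0.

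**Figure D2:**
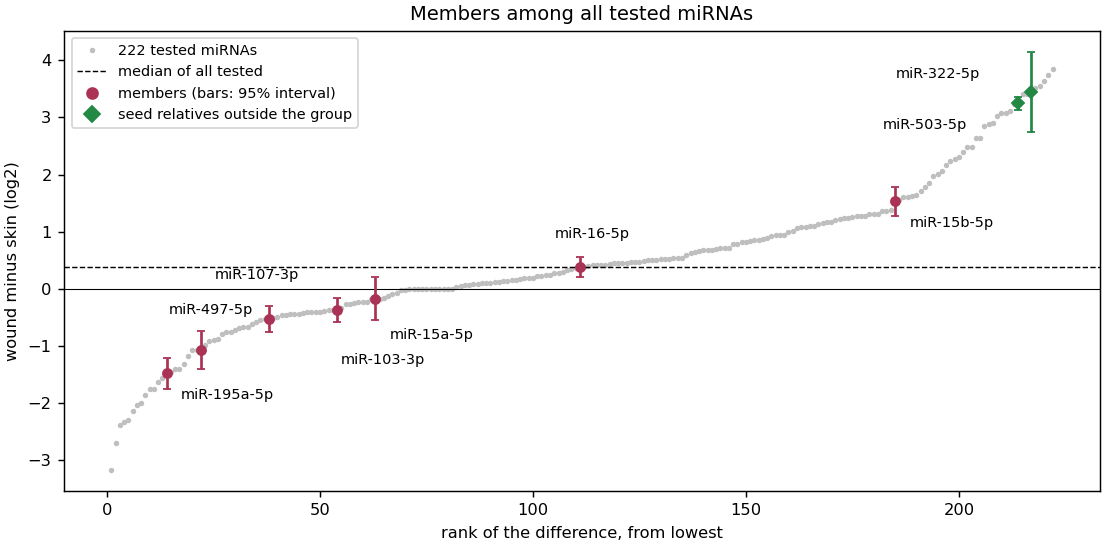
Wound minus skin difference (log2, vertical axis) of the 222 tested miRNAs in order of size (horizontal axis), with members in red, relatives outside the group in green, 95% intervals as bars and the median of all tested miRNAs as a dashed line. The members spread from rank 14 at the low end (miR-195a-5p) to rank 185 (miR-15b-5p), and miR-16-5p lies on the median; miR-503-5p is at the floor in skin, so its interval is too narrow.

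Each tested member was measured by 2 probes with 8 to 10 usable spots each per array. Spots of a probe varied by 2.04% to 16.4% (coefficient of variation on an array). Paired probes gave the same direction for all 7 members. For miR-103-3p the probes gave -0.37 and -0.38, and for miR-107-3p -0.52 and -0.54. The widest gap was that of miR-497-5p, at -0.73 and -1.17. miR-15b-5p gave 1.71 and 1.45, miR-195a-5p -1.63 and -1.43, miR-16-5p 0.43 and 0.37, and miR-15a-5p -0.18 and -0.17. The size of the fall of miR-497-5p is therefore known less well than that of miR-195a-5p.

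Ratios between members on the same array do not depend on a scaling that divides each array by 1 number. Of the 21 ratios among the 7 members and the ratio of miR-322-5p to miR-16-5p, 20 of 22 had wound values on 1 side of the skin values. With normexp background correction 16 did. The ratios share miRNAs and are not independent. The share for ratios between other miRNAs was not computed, while 69.8% of single tested miRNAs had wound values on 1 side. An exact two-sided permutation test of 3 against 3 arrays cannot give a p below 0.1. The 20 separated ratios reached 0.1 (0.11 after Benjamini-Hochberg adjustment over the 22), so none can pass 0.05 here. The largest shift among members was that of miR-15b-5p to miR-195a-5p, by 3.01 on the log2 scale. This ratio was -3.34, -2.91 and -3.09 on the skin arrays and -0.20, -0.069 and -0.038 on the wound arrays. Within the chromosome 3 pair, miR-15b-5p to miR-16-5p moved from -2.12 ± 0.22 to -0.97 ± 0.07 (SD, n = 3). miR-15a-5p to miR-15b-5p, which share their seed and differ at 4 bases, moved from 1.61 ± 0.27 to -0.10 ± 0.19. On the same arrays miR-15a-5p to miR-16-5p, the chromosome 14 pair, moved from -0.52 ± 0.17 to -1.07 ± 0.13. The smallest shift that separated the groups was that of miR-103-3p to miR-107-3p, by 0.15, from 0.38 ± 0.01 to 0.54 ± 0.05. The ratios of miR-103-3p and miR-107-3p to miR-15a-5p overlapped between groups (exact p = 0.6 and 0.2).

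**Figure D3:**
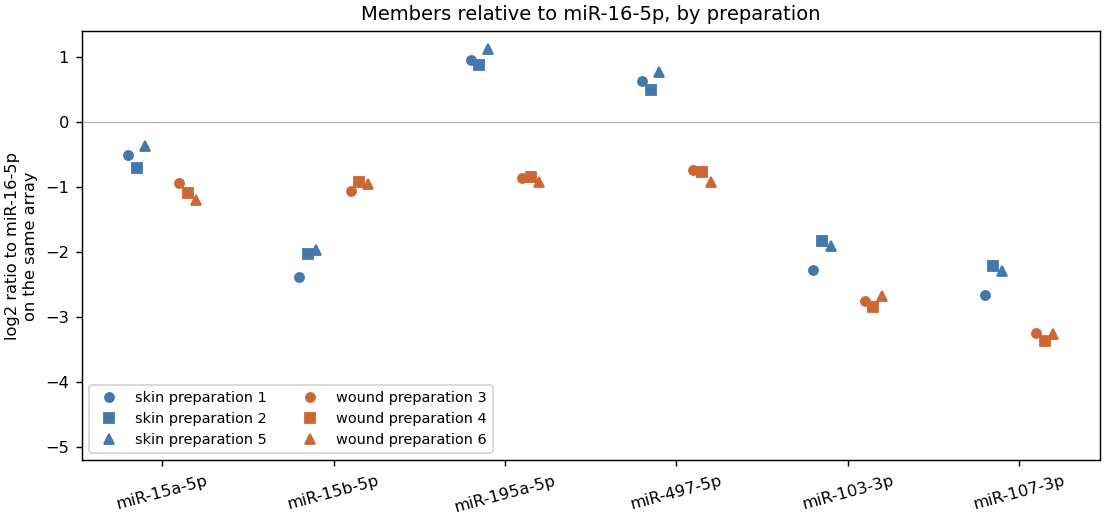
Log2 ratio of each of 6 members to miR-16-5p on the same array (vertical axis), skin in blue and wound in orange, with a symbol per preparation. Relative to miR-16-5p only miR-15b-5p is higher on the wound arrays, and the other 5 are lower, without overlap between groups.

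Scalings that divide each array by 1 number moved the differences of the 7 tested members together. miRNAs at the floor moved by other amounts, such as miR-503-5p from 3.25 to 2.78 with the percentile of all probes. Quantile normalization moved members by different amounts, miR-103-3p to -0.63 and miR-195a-5p to -1.25. The median difference of all tested miRNAs was 0.38 in the main scaling, 0.0011 with median scaling, -0.085 without scaling, -0.19 with the percentile of all probes and about zero by construction with quantile normalization. Under these 5 scalings miR-15b-5p was called higher each time (0.85 to 1.53), and miR-195a-5p (-2.17 to -1.25) and miR-497-5p (-1.75 to -0.78) lower each time. Members split into 2 higher and 4 lower in the main scaling and under quantile normalization, where 61.7% of tested miRNAs passed (31.5% higher, 30.2% lower). They split into 1 and 5 with the percentile of all probes, where 57.7% passed (23.4% higher, 34.2% lower), and with median scaling, where 59.5% passed (29.7% in each direction). Without scaling they split into 1 and 4, where 48.6% passed (24.3% in each direction). Over all tested miRNAs the share of calls that were higher was 68.1% in the main scaling, 40.6% with the percentile of all probes, 50.0% with median scaling and with none, and 51.1% with quantile normalization. With normexp background correction only miR-195a-5p passed (-1.48), and miR-15b-5p (1.27, adjusted p = 0.067 in limma) and miR-497-5p (-1.08, adjusted p = 0.099) kept their direction without passing. There 9.91% of all tested miRNAs passed and the median difference was 1.33, above that of miR-15b-5p.

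**Figure D4:**
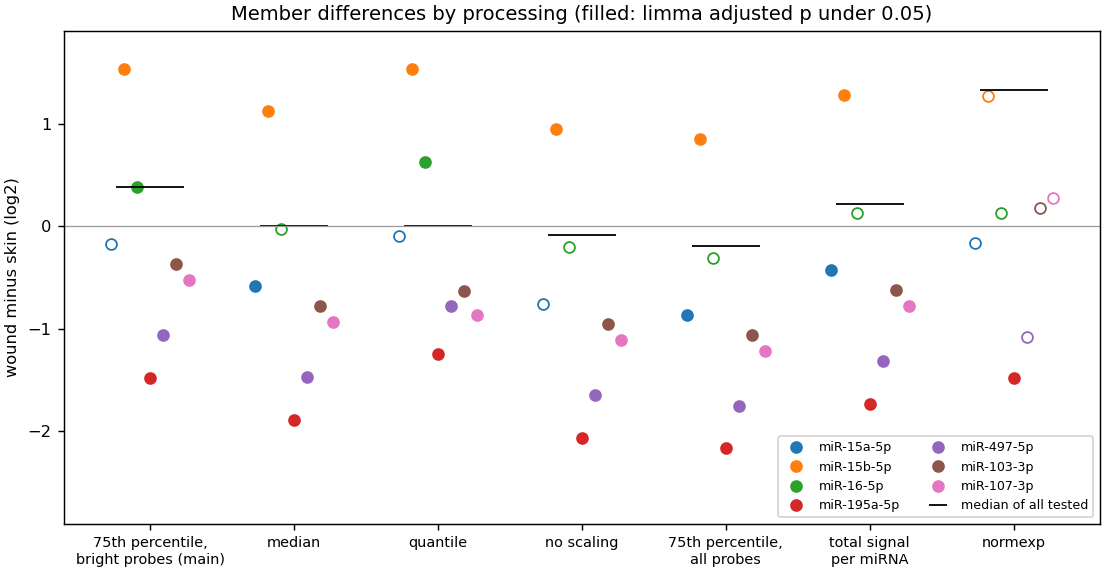
Wound minus skin difference (log2, vertical axis) of the 7 tested members under 7 ways of processing (horizontal axis); filled circles passed limma at an adjusted p under 0.05, and short black lines mark the median of all tested miRNAs. miR-15b-5p stays highest and miR-195a-5p lowest of the members in each column, while miR-16-5p crosses 0.

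The relatives in the X-linked cluster rose. miR-322-5p, which carries the seed AGCAGCA, had log2 levels of -3.65, -4.63 and -3.95 in skin and -0.74, -0.50 and -0.67 in wound. The difference was 3.44 (SE 0.27, adjusted p = 0.00023 in limma). Its skin signals were near the floor, at 1.58 to 3.54 times the lowest signal well above background on the same array. The size of its rise therefore depends on processing: 2.67 with the floor raised 4 times and 2.42 with normexp background correction. miR-503-5p was well above background on 0 skin arrays and stood at -2.01, -2.03 and -2.13 in wound, at least 10.72-fold higher in the main scaling. That bound sets its wound mean against the mean, over the skin arrays, of each array's own lowest log2 signal well above background. Against the common floor of -5.30 the wound mean of -2.06 is 9.49-fold higher, a log2 difference of 3.25. Under the other scalings the log2 difference to the floor was smaller, from 2.78 to 2.96, so the bound holds for the main scaling only. Relative to miR-16-5p, miR-322-5p moved by 3.06 on the log2 scale, and by 2.29 with the floor raised 4 times or with normexp. Of the 6 tested miRNAs with the AGCAGCA seed, 3 were thus called higher (miR-322-5p, miR-15b-5p and miR-16-5p, the last depending on the scaling), 2 lower and 1 not, beside 44.1% higher and 20.7% lower among all tested miRNAs.

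miRNAs outside the group that are linked to the cell cycle were counted from lists written with earlier results of these data known. The main scaling was used, where 44.1% of all tested miRNAs were called higher and 20.7% lower. Among 23 tested names of 40 known to restrain proliferation, 6 were higher, 14 lower and 3 did not pass, with a median difference of -0.45, against 0.38 over all tested. The 6 higher names include miR-322-5p and miR-503-5p, already described above. miR-26b-5p (-1.75) and miR-29a-3p (-1.75) were among the lower, and miR-34a-5p (0.53) among the higher. Among 13 tested names of 24 known to promote it, 8 were higher, 1 lower and 4 did not pass, with a median of 0.52. miR-19a-3p (1.71) and miR-20a-5p (0.47) of the miR-17-92 cluster were among the higher, and miR-106b-5p (-0.40) was the lower one. These examples were chosen after their values were seen. The counts moved with the scaling: with the percentile of all probes, where 23.4% of all tested miRNAs were higher and 34.2% lower, the restraining names gave 4 higher and 16 lower and the promoting names 4 higher and 3 lower, with medians of -1.08 and -0.057. Some names were tested only because they were well above background on every array of 1 group. Through the wound arrays alone these were 4 restraining names, of which miR-34b-5p, miR-34c-5p and miR-503-5p were called higher, and 3 promoting names, of which miR-155-5p and miR-18a-5p were called higher. Through the skin arrays alone it was miR-101b-3p, a restraining name called lower. The counts therefore cover tested names and not the whole lists. Of the names not passing, miR-29b-1-5p (restraining) and miR-21a-3p (promoting) lay at the floor on all arrays and could not pass in the main scaling.

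Among the 215 tested miRNAs outside the group, the profiles most like that of miR-16-5p over the 6 arrays were those of miR-299a-3p, of miR-2138_v15.0, a name kept from an older registry version, and of miR-193b-3p. The root mean square distance between centred log2 values was 0.058, 0.081 and 0.096, and the wound minus skin differences were 0.41, 0.35 and 0.38. Most like miR-103-3p were miR-151-5p, miR-331-3p and miR-140-5p at distances of 0.051, 0.078 and 0.085, with differences of -0.41, -0.33 and -0.40; the adjusted p of miR-331-3p was 0.065 in limma.

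Marker miRNAs were checked against the labels. Of 8 mesenchymal and smooth muscle names 7 were tested (2 higher, 2 lower, 3 not passing). Among those not passing, miR-214-5p lay at the floor on all 6 arrays and could not pass. The summed scaled signal of the 8 names was 20.3 to 24.2 in skin and 15.7 to 17.4 in wound. None of the 7 blood cell names was tested; among them miR-451a, an erythroid miRNA, was well above background on 2 skin and 0 wound arrays, and the summed signal was 0.0160 to 0.0321 in skin and 0.0272 to 0.0356 in wound. Of 12 keratinocyte names, 2 were tested, miR-203-3p (-1.45) and miR-205-5p (-0.92). Both were lower in wound and well above background on 0 wound arrays. They were tested through the skin arrays alone and lay at the floor in wound, so these differences are limited by the floor. The summed signal of the 12 names was 0.120 to 0.204 in skin and 0.00513 to 0.00920 in wound. Endothelial miR-126-3p was well above background on 3 skin and 3 wound arrays, and its difference did not pass (0.50, adjusted p = 0.11 in limma). The summed signal of its arms was 0.0363 to 0.0583 in skin and 0.0555 to 0.0773 in wound. Of 7 striated muscle names 0 were well above background, with summed signals of 0.0179 to 0.0285 in skin and 0.0266 to 0.0307 in wound. The part of these cells in the members' differences was not tested.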

How the data were processed

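Total RNA of 6 preparations was labelled with Cy3 on 1-colour Agilent miRNA arrays, per the labels. The deposited scanner files hold spot intensity from Agilent Feature Extraction 10.7.3.1, per the file headers: a background-subtracted processed signal not normalized between arrays. A further deposited table holds the authors' log2 values, equal to log2 total signals of the scanner files minus a constant per array; the sources used here do not give that constant. It served as an alternative.

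Processed signals were averaged over spots without outlier flags (2.14% to 3.11% of spots were left out), scaled, averaged over the probes of a name, raised to a floor of 0.0253 and taken to log2. Over 50% of a probe's spots had to be flagged well above background for the probe to count as such, and a name was tested if any probe met this on each of the 3 arrays of a group (222 of 690). Of the 222, 7 lay at the floor on all 6 arrays after averaging over probes, so they could not pass in the main scaling. With 0 spots saturated, limma 3.58.1 (R 4.3.3, lmFit and eBayes, two-sided) compared the groups, adjusted over all tested names; it was tested on simulated data. Ratios used SciPy 1.17.1. All arrays lay on 1 slide, whose rows were tried as a block.

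Every member is named; profiles most like a member were ranked by distance. Members, lists and tests were chosen with earlier results of these data known.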

Additional observations from a re-analysis of the deposited data

How the results depend on the processing

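No paired analysis was possible because the groups share no preparation numbers in the labels. Over the scalings, the summary over probes, the floors, both filters, limma with trend or array weights, and a block for slide row, miR-15b-5p, miR-195a-5p, miR-497-5p and miR-107-3p kept their calls and directions. So did miR-103-3p, except with every name tested (adjusted p = 0.062 in limma). With total signals per miRNA miR-16-5p did not pass (0.13, adjusted p = 0.46). miR-16-5p turned to -0.31 with the percentile of all probes, -0.029 with median scaling and -0.20 without scaling. Leaving out any 1 array changed none of the 6 calls: miR-15b-5p then ranged from 1.46 to 1.59, miR-195a-5p from -1.57 to -1.42 and miR-103-3p from -0.46 to -0.32. Within the rows of the slide miR-15b-5p differed by 1.51 and 1.45 and miR-195a-5p by -1.42 and -1.59, while miR-15a-5p gave 0.020 and -0.36.

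The 144 calls over all miRNAs became 78 when the floor was raised 4 times; normexp left 22, with 1 member. Normexp worked on median signals, in which empty dark corner spots stood 118 to 148 units above local background, against -2.42 to 3.67 in the processed signal. With it miR-103-3p gave 0.18 and miR-107-3p 0.27 (adjusted p = 0.71 and 0.62), and these ratios turned: miR-103-3p to miR-107-3p (-0.092), to miR-15a-5p (0.35) and to miR-16-5p (0.053), and miR-107-3p to miR-15a-5p (0.44) and to miR-16-5p (0.15).

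Taking the columns of the deposited table by their numbers mixes the groups of the scanner files: 0 of 202 miRNAs and 0 members passed in limma (1 and 0 at an unadjusted p under 0.05). miR-103-3p was then 0.30, miR-107-3p 0.31, miR-15a-5p 0.33, miR-15b-5p -0.33, miR-195a-5p 0.77, miR-497-5p 0.60, miR-322-5p -0.56 and miR-503-5p -3.99, each with its sign turned (adjusted p = 0.93).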

Other observations

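The opposite arms from the Dleu2 locus gave a faint signal on 1 array. Unscaled, miR-15a-3p stood at 27.9 intensity units on skin preparation 5 and at 2.61 to 6.30 on the other arrays, and miR-16-1-3p at 21.1 on that array and at -0.49 to 3.77 on the others. The scanner software marked both as detected on that array only, and both stayed below its lowest signal that was well above background (0.858 and 0.652 times it). miR-15b-3p, the opposite arm of the member that rose, lay between 2.92 and 6.40 units on all arrays and was marked as detected on 0 of them. Unscaled, miR-15a-5p, a main arm from Dleu2, was also brightest on skin preparation 5, at 2427 units against 963 to 2040 on the others. That array had the highest scaling percentile (1772 units). After scaling, miR-15a-5p was 0.45 there, and 0.46 and 0.089 on skin preparations 1 and 2.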
